A study of Mus musculus with 180 samples.

Results

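The clustered histone genes were described across 4 single-cell populations. All genes of the deposited table whose symbol begins with Hist1h, Hist2h, Hist3h or Hist4h were taken, which gave 66 of the 14825 listed genes: 5 genes for the linker histone H1, 18 for H2A, 18 for H2B, 12 for H3 and 13 for H4. On GRCm38, 52 of them lie on chromosome 13 between 21715763 and 23934851, 10 on chromosome 3, 3 on chromosome 11 and 1 on chromosome 6. One member, Hist3h2bb-ps, is annotated as a pseudogene. The values are TPM (a level of transcripts scaled for transcript length and to the same total in each cell). The populations were adult bone marrow haematopoietic stem cells (BM HSC, 36 cells) and wild-type multipotent progenitors (WT-MPP, 41 cells), both from 8-week-old C57BL/6 mice, foetal liver HSC of Day14.5 embryos (FL HSC, 56 cells), and donor-derived CD11b+CD48+SK cells (47 cells, called SK cells below) taken from primary recipients 8 weeks after transplantation. The mice that gave BM HSC, WT-MPP and FL HSC are labelled Hoxb5LSL/+, that is, with the Hoxb5 transgene behind a stop cassette. FL HSC were sorted partly on Mac1, another name of CD11b, and their source is given as bone marrow in the labels although their cell type is foetal liver HSC. The CD11b+CD48+SK cells came from MPP of Mx1cre/Rosa LSL-Hoxb5-EGFP/+ mice, in which Hoxb5 is expressed once pIpC induces Cre from the interferon-responsive Mx1 promoter. They also differed from the other populations by growth in irradiated hosts and by pIpC, so that Hoxb5, transplantation and pIpC cannot be told apart here. No label tied cells to animals, so each population was taken as 1 sample, cells were not treated as replicates and no test between populations was made.

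Histone proteins package DNA: pairs of H2A, H2B, H3 and H4 form the core of the nucleosome and H1 binds the linker between nucleosomes. The clustered genes, also called replication-dependent, are transcribed mainly in S phase from intronless genes, under the cyclin E/Cdk2 substrate NPAT. Most of their mRNAs end after a 3′ stem-loop, which is bound by SLBP, and carry no poly(A) tail. Some members are also transcribed outside S phase or make polyadenylated mRNA, as seen in differentiating and resting cells. The libraries here were made from cDNA by a Smart-Seq2 type amplification, which primes from poly(A), so that the TPM of a histone gene need not follow the amount of its stem-loop mRNA.

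The labels were first set beside transcripts of some of the sort markers. Kit, Ly6a and Flt3 are not given here. Cd48 was at 1 TPM or more in 100% of SK cells, against 2.78% of BM HSC, 17.9% of FL HSC and 17.1% of WT-MPP. Slamf1, which encodes CD150, was at that level in 63.9% of BM HSC and 55.4% of FL HSC but in 6.38% of SK cells and 7.32% of WT-MPP. Itgam, which encodes CD11b, was found in 36.2% of SK cells and 16.1% of FL HSC, the populations sorted on CD11b. Its shares in WT-MPP and BM HSC are not given here. The median number of genes at 1 TPM or more was 4514 in SK cells, 4442 in BM HSC, 5207 in FL HSC and 3844 in WT-MPP; read depth is unknown. Markers of red cells stood higher in FL HSC: the summed TPM of the 7 listed erythroid markers ran from 104 to 11631 there (median 2406), with no marker at 0 in all cells, against medians of 4.41, 2.40 and 93.2 in SK cells, WT-MPP and BM HSC, where Epor, Klf1 and Hba-a1, respectively, were at 0 in every cell. The rank correlation of that sum with the summed histone TPM was 0.10 within FL HSC and -0.34 within WT-MPP. The part of these markers in the histone levels was not tested. Of the 4 other marker lists, mast or basophil markers reached 9317 TPM in an SK cell, against at most 1336 elsewhere. The same correlation for these lists ran from -0.48 (myeloid markers in WT-MPP) to 0.39 (B cell markers in BM HSC). Their part was not tested.

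Sequences of the 3′ stem-loop are shown because they mark the replication-dependent form of a histone mRNA. A 16-base stem-loop was found downstream of the coding sequence in the GENCODE transcripts of 43 of 66 members, namely 3 of 5 H1, 11 of 18 H2A, 10 of 18 H2B, 8 of 12 H3 and 11 of 13 H4 genes; for the other 23 members these letters are not in the annotated transcript, some of which stop at the coding end. The form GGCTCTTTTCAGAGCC stood in 26 members, and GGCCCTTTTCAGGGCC in 7, all of them H4 genes. The examples below have the stem-loop in capitals.
Hist1h2ap: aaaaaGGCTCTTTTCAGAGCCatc
Hist2h2aa1: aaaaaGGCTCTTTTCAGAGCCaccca
Hist1h1c: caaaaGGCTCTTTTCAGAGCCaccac
Hist1h2bg: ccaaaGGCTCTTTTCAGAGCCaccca
Hist1h3e: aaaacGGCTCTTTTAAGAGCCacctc
Hist1h4d: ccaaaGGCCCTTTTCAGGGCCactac
The stretch annotated after the stem-loop differed far more than the stem-loop itself. It was 3 bases in Hist1h2ap, 35 in Hist2h2aa1, 155 in Hist1h2bg, 369 in Hist1h3e, 770 in Hist1h4d and 840 in Hist1h1c.

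Promoters are shown for the members on which the results below turn. RefSeq (GRCm38.p6) gave a window for 60 of the members, of which the 250 bases before the start are printed, 5′ to 3′ on the gene's own strand. Hist4h4 is included as a window with none of the 3 motifs searched. Capitals mark CCAAT (or ATTGG on the other strand), TATAAA (or TTTATA) and the octamer ATTTGCAT (or ATGCAAAT).
Hist1h2ap promoter, chr13:21833476-21833725, minus strand: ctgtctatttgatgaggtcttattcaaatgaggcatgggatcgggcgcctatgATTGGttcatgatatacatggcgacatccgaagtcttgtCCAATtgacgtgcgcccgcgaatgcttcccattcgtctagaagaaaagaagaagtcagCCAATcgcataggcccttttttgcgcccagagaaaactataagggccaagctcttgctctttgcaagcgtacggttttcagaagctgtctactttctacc
Hist1h2bk promoter, chr13:22035571-22035820, plus strand: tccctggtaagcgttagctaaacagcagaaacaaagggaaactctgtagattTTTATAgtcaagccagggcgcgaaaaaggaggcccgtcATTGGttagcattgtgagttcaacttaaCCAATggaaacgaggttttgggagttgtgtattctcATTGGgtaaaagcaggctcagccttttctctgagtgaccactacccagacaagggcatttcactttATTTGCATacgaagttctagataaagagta
Hist1h1b promoter, chr13:21780626-21780875, minus strand: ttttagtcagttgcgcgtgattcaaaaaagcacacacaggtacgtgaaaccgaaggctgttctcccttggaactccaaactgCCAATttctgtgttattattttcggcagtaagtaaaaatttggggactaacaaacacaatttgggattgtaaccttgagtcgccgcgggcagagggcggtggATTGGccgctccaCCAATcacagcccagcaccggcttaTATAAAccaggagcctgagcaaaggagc
Hist1h1c promoter, chr13:23738557-23738806, plus strand: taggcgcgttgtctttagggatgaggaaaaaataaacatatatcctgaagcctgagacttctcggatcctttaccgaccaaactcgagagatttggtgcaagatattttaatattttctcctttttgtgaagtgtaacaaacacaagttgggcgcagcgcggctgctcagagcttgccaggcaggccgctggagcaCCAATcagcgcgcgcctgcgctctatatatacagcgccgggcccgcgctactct
Hist2h2aa1 promoter, chr3:96245247-96245496, plus strand: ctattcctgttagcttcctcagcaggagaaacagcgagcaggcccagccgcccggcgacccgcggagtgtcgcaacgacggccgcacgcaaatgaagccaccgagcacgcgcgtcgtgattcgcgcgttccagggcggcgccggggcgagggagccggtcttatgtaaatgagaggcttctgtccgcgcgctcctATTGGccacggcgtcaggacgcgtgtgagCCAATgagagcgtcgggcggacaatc
Hist4h4 promoter, chr6:136804432-136804681, minus strand: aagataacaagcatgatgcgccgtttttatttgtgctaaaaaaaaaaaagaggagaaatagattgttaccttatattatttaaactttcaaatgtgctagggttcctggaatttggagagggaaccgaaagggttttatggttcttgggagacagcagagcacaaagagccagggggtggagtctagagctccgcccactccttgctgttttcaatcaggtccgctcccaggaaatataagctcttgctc
CCAAT stood in all 5 H1, 18 H2A and 16 H2B windows, in 8 of 10 H3 and in 3 of 12 H4 windows, against 33.8% of all 32851 promoter windows. The octamer stood in 7 of 18 H2A and 7 of 16 H2B windows and in none of the H1, H3 and H4 windows, against 1.60% of all windows. TATAAA was found in 47.5% of the members' windows and 12.4% of all windows. Because 12 pairs of an H2A and an H2B gene face away from each other over 172 to 305 bases, the windows of such a pair overlap and are not separate counts. Of those shown above, Hist1h2bk shares its window in this way with Hist1h2ah, and Hist1h2ap with Hist1h2br. The matches are letters in a window and were not tested as binding sites.

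Members of 1 type are so alike that reads cannot always be placed. Of the 66 members, 42 shared their translated product with another member. The coding sequences of Hist1h2ao (chromosome 13, 21810465 to 21810944) and Hist1h2ap (chromosome 13, 21833026 to 21833507) were identical over 390 bases, and 6.50% and 6.93% of their 50-base stretches occurred in no other member. Hist2h2aa1 and Hist2h2aa2, on chromosome 3, also had the same coding sequence. By contrast, all 50-base stretches of Hist1h1a, Hist1h1b, Hist2h2bb, Hist2h2be and Hist4h4 were their own. Values of near-identical members are therefore uncertain one by one and are not independent of each other.

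The split between Hist1h2ao and Hist1h2ap set the FL HSC libraries apart from all others. Over cells with at least 100 TPM of Hist1h2ap, the ratio of Hist1h2ao to Hist1h2ap had a median of 0.0376 in 43 SK cells (0.0290 to 0.0720), 0.0377 in 34 WT-MPP (0.0295 to 0.128) and 0.0361 in 26 BM HSC (0.0266 to 0.0660). In 53 FL HSC it was 0.927 and ran from 0.764 to 1.09, so that no FL HSC overlapped with any cell of the other populations. The ratio of Hist1h2ag to Hist1h2ap was also higher in FL HSC, with a median of 0.330 against 0.119 to 0.130 in the 3 other populations. So were those of Hist1h2ah (0.108 against 0.0485 to 0.0555) and Hist1h2an (0.0699 against 0.0277 to 0.0309). All these ratios divide by Hist1h2ap, so they are not separate from the split above. Hist1h2ag and Hist1h2ap differ at 3 coding bases, A18G, C24T and G387A, counted from the A of the start codon with the base of Hist1h2ag first. What made the split differ was not tested, and it cannot be told apart from the population. Hist1h2ao and Hist1h2ap are counted one by one in the counts below and described by their sum.

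**Figure D1:**
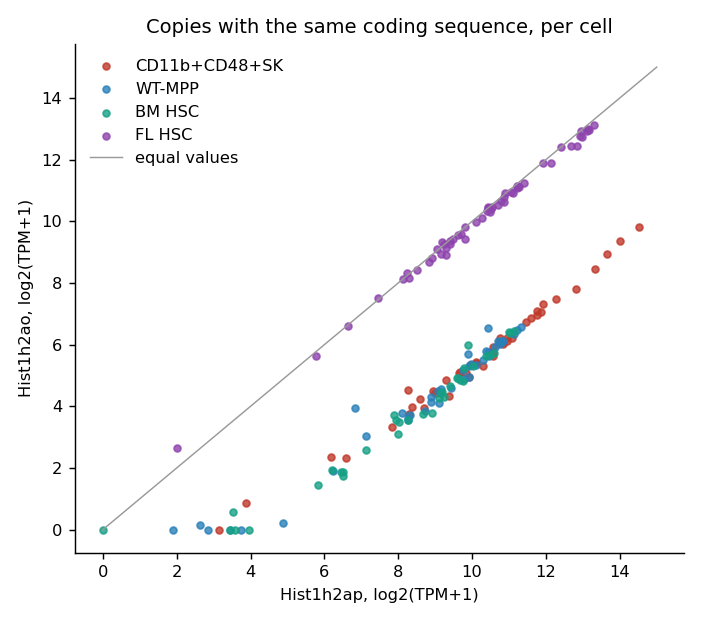
Hist1h2ao against Hist1h2ap in each of the 180 cells, both as log2(TPM+1), coloured by population, with a line at equal values. FL HSC lie close to the line, at a median ratio of 0.927, and cells of the other populations with at least 100 TPM of Hist1h2ap lie well below it, at median ratios of 0.0361 to 0.0377.

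The clustered histone genes together made up well under 1% of the TPM of a typical cell. Their summed TPM ran from 374 to 40542 in SK cells (median 3220), from 307 to 12106 in WT-MPP (median 3294), from 255 to 12078 in BM HSC (median 2310) and from 510 to 31648 in FL HSC (median 5199). The ranges overlapped, but 5 of 47 SK cells (13247 to 40542 TPM) and 12 of 56 FL HSC (15544 to 31648 TPM) lay above the highest adult cell. How SK cells and WT-MPP compared depended on the summary: their medians were close, their means were 5499 and 3397, and without Hist1h2ap their medians were 1513 and 2099.8. The upper ends also differed: the upper quartile was 6186 in SK cells and 10397 in FL HSC, against 4654 in WT-MPP and 3823 in BM HSC. The highest cell was an SK cell with 40542 TPM, of which Hist1h2ap gave 23331, in a library with the fewest detected genes of that population, 3039. The number of members at 1 TPM or more separated the populations more than the sum did, with a median of 31 in SK cells (9 to 58), 19.5 in BM HSC (7 to 44), 39 in FL HSC (14 to 65) and 23 in WT-MPP (9 to 38). The median number of all genes detected was 5207 in FL HSC, 4514 in SK cells, 4442 in BM HSC and 3844 in WT-MPP. FL HSC had the most members and the most genes, and BM HSC the fewest members but not the fewest genes. The part of gene detection in the member count was not tested.

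H2A genes carried most of the signal in each population, and their share was larger in SK cells and FL HSC. H2A gave 74.3% of the pooled histone TPM in SK cells and 77.2% in FL HSC, against 59.3% in WT-MPP and 55.7% in BM HSC. Hist1h2ao and Hist1h2ap alone gave 51.6% and 52% in the first pair of populations, and 27.1% and 20.6% in WT-MPP and BM HSC. These shares are of TPM summed over the cells of a population, so that a few high cells weigh most. As a median over cells, the H2A share was 78.3% in FL HSC, 71% in SK cells, 59.3% in WT-MPP and 59.1% in BM HSC, which kept the pooled order. H1 gave 19.8% of the pooled TPM in BM HSC but 3.25% in SK cells, 6.22% in WT-MPP and 3.13% in FL HSC. Per cell the median H1 share was 11% in BM HSC and 2.5% in SK cells, 2.42% in FL HSC and 3.299% in WT-MPP. H2B gave 26.1% of the pooled TPM in WT-MPP, 17.1% in BM HSC, 11.4% in SK cells and 9.94% in FL HSC. Per cell the median H2B share was 19.8% in WT-MPP but 4.54% in BM HSC, which was then the lowest, with 7.32% in SK cells and 7.64% in FL HSC. H3 stayed at 1.48% to 3.15% of the pooled TPM and H4 at 4.83% to 7.89%. By chromosome, the chromosome 13 cluster gave 94.6% and 94.3% of the pooled histone TPM in SK cells and FL HSC, and 71.9% and 69.1% in WT-MPP and BM HSC, where the chromosome 3 cluster gave 19.2% and 26%.

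**Figure D2:**
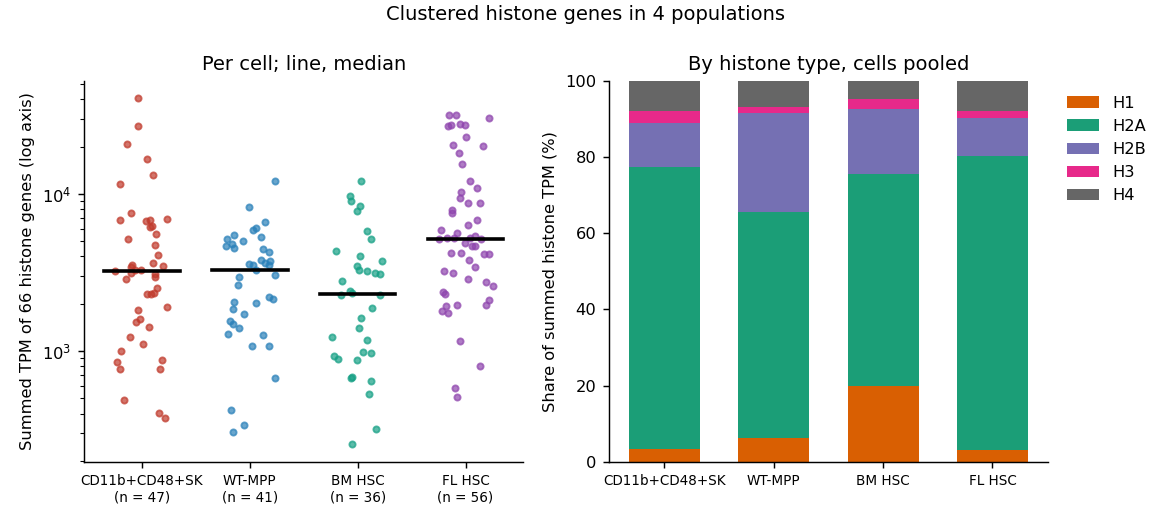
Left, the summed TPM of the 66 histone genes in each cell on a log axis, with the population median as a line (3220, 3294, 2310 and 5199 TPM from left to right). Right, the share of the pooled histone TPM by histone type in each population; H2A takes 74.3% and 77.2% in SK cells and FL HSC and 59.3% and 55.7% in WT-MPP and BM HSC.

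Member by member, 54 of 66 genes stood above WT-MPP in SK cells by any amount, as did 53% of all genes, and 60 stood above BM HSC in SK cells (43.2% of all genes). In FL HSC 62 stood above WT-MPP (70.1%) and 62 above BM HSC (61.3%). A member was counted when the mean of log2(TPM+1) over cells differed by 1 or more, and each count is set against the share of all 14825 genes past the same step. This scale understates the change of low genes. Between SK cells and WT-MPP, 30 of 66 members were higher (13.9% of all genes) and 3 lower (3.67%), with a median difference of 0.81 over members and 0.032 over all genes. Against BM HSC, SK cells had 29 members higher (9.79%) and 3 lower (8.63%), with medians of 0.93 and 0. These counts moved with the scale in both directions. With a pseudocount of 10 in place of 1, SK cells had 4 members higher (5.09% of all genes) and 3 lower (1.15%) against WT-MPP, and 11 higher (3.62%) and 3 lower (2.95%) against BM HSC. Taking the log of the mean TPM in place of the mean of logs gave 40 higher (9.80%) and 10 lower (21.3%) against WT-MPP and 35 higher (9.16%) and 7 lower (25.1%) against BM HSC.

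More members, and more of all genes, were higher in FL HSC than in the adult populations. Between FL HSC and BM HSC, 44 members were higher (18.7% of all genes) and 2 lower (3.99%), with a median difference of 1.46 against 0.11 over all genes. Between FL HSC and WT-MPP, 39 were higher (24.8%) and 1 lower (2.25%), with medians of 1.26 and 0.23. With a pseudocount of 10, 19 members were higher (7.04% of all genes) and 2 lower (1.33%) against BM HSC, and 18 higher (10.4%) and 1 lower (0.803%) against WT-MPP. On the log of the mean TPM these counts were 39 (12.98%) and 7 (18.1%) against BM HSC and 44 (15.8%) and 5 (16.1%) against WT-MPP. Between SK cells and FL HSC, 1 member was higher (2.94%) and 22 lower (15.3%), with medians of -0.61 and -0.14. With a pseudocount of 10 the split was 0 higher (1.21%) and 7 lower (5.21%), and on the log of the mean TPM 5 higher (7.74%) and 16 lower (19.3%). Between BM HSC and WT-MPP, 1 member was higher (10.6%) and 3 lower (1.96%), with medians of -0.11 and 0.088, and on the log of the mean TPM 10 were higher (15.8%) and 10 lower (11.4%). With members of identical coding sequence summed, which left 63, 43 were higher (18.7% of all genes) and 2 lower (3.99%) between FL HSC and BM HSC.

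In all 4 comparisons of SK cells and FL HSC with WT-MPP and BM HSC, 22 members were higher by 1 or more (4.67% of all genes): Hist1h1b, 11 H2A genes of chromosome 13, 4 H2B genes (Hist1h2bb, Hist1h2bk, Hist1h2bn and Hist2h2bb), 3 H3 genes (Hist1h3b, Hist1h3h and Hist1h3i) and 3 H4 genes (Hist1h4d, Hist1h4i and Hist1h4n). Counted one by one, only Hist2h2aa1 was lower in all 4 (0.391% of all genes). Its sum with Hist2h2aa2, which has the same coding sequence, was also lower by 1 or more in all 4. For FL HSC minus WT-MPP and FL HSC minus BM HSC the sum differed by -1.17 and -1.34. The 4 comparisons share their samples, and the 11 H2A genes share much of their sequence, so these are not separate observations.

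**Figure D3:**
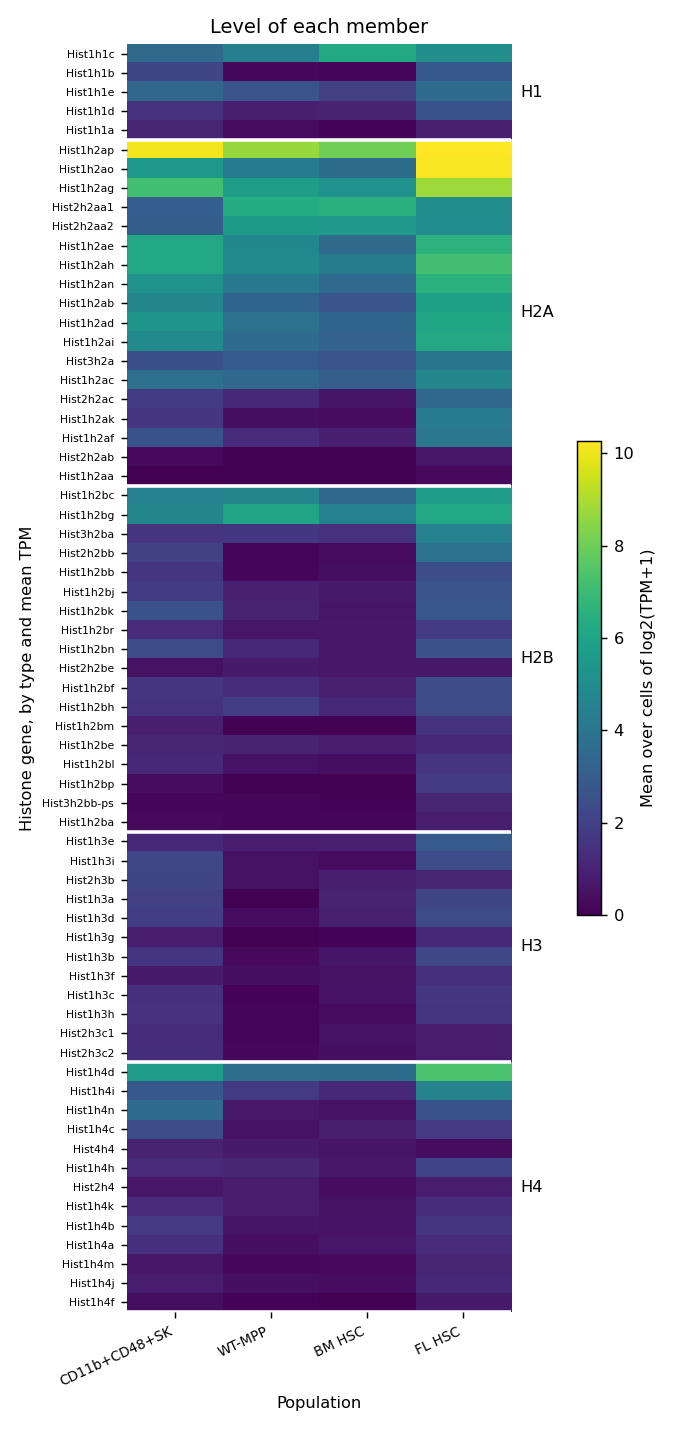
Mean over cells of log2(TPM+1) for the 66 members (rows, by type and by mean TPM) in the 4 populations (columns). Hist1h2ap, with mean TPM of 625 to 2737, is the brightest row, Hist1h2ao is bright in FL HSC, where its median ratio to Hist1h2ap is 0.927, and Hist1h1c and Hist2h2aa1 are brightest in BM HSC.

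H2A proteins pair with H2B in the nucleosome core. The sum of Hist1h2ao and Hist1h2ap ran from 7.83 to 24225 TPM in SK cells (median 1303), from 2.72 to 2669 in WT-MPP (median 902), from 0 to 2340 in BM HSC (median 528) and from 8.30 to 18960 in FL HSC (median 2746). All populations overlapped, with the highest cells in SK cells and FL HSC. On the log2 scale the sum was 1.42 higher in SK cells than in WT-MPP, 2.04 higher than in BM HSC and 1.08 lower than in FL HSC. Hist1h2ao by itself differed by 6.52 between FL HSC and BM HSC, against 3.12 for the sum. Hist1h2ag ran from 0.289 to 2999.7 TPM in SK cells (median 177), 0 to 298 in WT-MPP (median 97.8), 0 to 281 in BM HSC (median 58.2) and 1.001 to 3111 in FL HSC (median 456). Hist1h2ak was found in 96.4% of FL HSC (95% exact interval 87.7 to 99.6, which covers counting of cells only, as do all intervals here), 42.6% of SK cells (28.3 to 57.8), 22% of WT-MPP (10.6 to 37.6) and 13.9% of BM HSC (4.67 to 29.5).

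Hist2h2aa1 and Hist2h2aa2, the adjacent chromosome 3 copies of H2A, went the other way from the chromosome 13 H2A genes. Hist2h2aa1 ran from 0 to 629 TPM in SK cells (median 5.32), 0 to 1959 in WT-MPP (median 167), 0 to 5519 in BM HSC (median 207) and 0.110 to 428 in FL HSC (median 52.9). It was highest in the adult populations, with wide overlap. The sum of both copies was 3.50 lower on the log2 scale in SK cells than in WT-MPP, 3.68 lower than in BM HSC and 2.34 lower than in FL HSC. Its median per cell was 10.3 TPM in SK cells, 390 in BM HSC, 105 in FL HSC and 305 in WT-MPP. The pair gave 17.9% and 24.4% of all histone TPM in WT-MPP and BM HSC, against 2.06% in SK cells and 1.64% in FL HSC. The testis-type gene Hist1h2aa was at 0 in every cell of 3 populations, which allows shares of up to 6.38% of SK cells, 7.32% of WT-MPP and 8.33% of BM HSC, and was at 1 TPM or more in 7.14% of FL HSC.

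Among the linker histones, Hist1h1c stood highest in BM HSC on the mean log2 scale and the other 4 in SK cells or FL HSC. Hist1h1c encodes H1.2 and is among the H1 genes also expressed outside S phase. It ran from 0 to 763 TPM in SK cells (median 8.64), 0.326 to 1521 in WT-MPP (median 4.79), 0.212 to 5315 in BM HSC (median 162) and 0 to 1512 in FL HSC (median 50.5). BM HSC stood highest, at 1 TPM or more in 97.2% of cells (85.5 to 99.9) against 66% of SK cells (50.7 to 79.1). The difference was -2.70 between SK cells and BM HSC, -1.15 between FL HSC and BM HSC and 1.85 between BM HSC and WT-MPP. Hist1h1b, which encodes H1.5, was found mostly in SK cells and FL HSC. It reached 471 TPM in SK cells, 98.2 in BM HSC, 641 in FL HSC and 162 in WT-MPP, with a median of 0.657 in FL HSC and 0 in the other populations. The share of cells at 1 TPM or more was 42.6% in SK cells (28.3 to 57.8) and 42.9% in FL HSC (29.7 to 56.8), against 7.32% in WT-MPP (1.54 to 19.9) and 2.78% in BM HSC (0.0703 to 14.53). Hist1h1e was found in 70.2% and 75% of SK cells and FL HSC and in 51.2% and 33.3% of WT-MPP and BM HSC. Hist1h1d was found in 58.9% of FL HSC and in 19.4% to 31.9% of the other populations.

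H2B genes showed both orders. Hist1h2bg ran from 0 to 624 TPM in SK cells (median 41.6), 0 to 2475 in WT-MPP (median 193), 0 to 1844 in BM HSC (median 15.4) and 0 to 881 in FL HSC (median 132). It was the third member lower in SK cells than in WT-MPP, by 1.32, and differed by 0.18 from BM HSC. Hist1h2bc, which has the highest mean TPM of the H2B genes, had medians of 13.8, 15.1, 4.65 and 75.7 in the same order of populations and reached 3783, 3236, 1029.5 and 5050.5 TPM. Its few very high cells occurred in every population, and its difference between SK cells and WT-MPP was -0.11. Hist2h2bb, at the end of the chromosome 3 cluster, was found in 64.3% of FL HSC (50.4 to 76.6) and 38.3% of SK cells (24.5 to 53.6), but in 1 of 41 WT-MPP and 2 of 36 BM HSC. It was higher by 1.90 in SK cells than in WT-MPP and by 3.59 in FL HSC than in BM HSC. Hist3h2ba was found in 67.9% of FL HSC and in 30.6% to 34% of the other populations. Its mean TPM, however, was 181 in WT-MPP, 148 in FL HSC, 92.2 in BM HSC and 25.3 in SK cells, and single cells reached 2474 TPM in WT-MPP and 2828 in BM HSC. Hist1h2bm was at 0 in every BM HSC and Hist1h2bp in every BM HSC and WT-MPP, while they were found in 39.3% and 58.9% of FL HSC. Such zeros allow shares of up to 8.33% of BM HSC and 7.32% of WT-MPP.

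H3 genes had low TPM in every population, and many cells had none of them. All 12 stood above WT-MPP and above BM HSC in both SK cells and FL HSC by any amount, as did 27.8% of all genes. In SK cells, 9 of them passed a difference of 1 above WT-MPP (13.9% of all genes) but 4 above BM HSC (9.79%). In FL HSC, 8 passed it above WT-MPP (24.8%) and 8 above BM HSC (18.7%). The median number of H3 genes at 1 TPM or more per cell was 5 in SK cells, 0.5 in BM HSC, 5.5 in FL HSC and 0 in WT-MPP. Hist1h3a was found in 46.8% of SK cells (32.1 to 61.9) and 51.8% of FL HSC (38 to 65.3), against 4.88% of WT-MPP (0.596 to 16.5) and 16.7% of BM HSC (6.37 to 32.8). Hist1h3i was found in 44.7%, 9.76%, 8.33% and 48.2% of SK cells, WT-MPP, BM HSC and FL HSC. Hist2h3b, which shares most of its sequence with other H3 members, was the only member higher in SK cells than in FL HSC by 1 or more, by 1.07, and that difference was 0.97 when the cell of highest summed histone TPM was left out of each population. Hist1h3e was found in 58.9% of FL HSC and in 23.4% of SK cells, 17.1% of WT-MPP and 13.9% of BM HSC.

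H4 is encoded by 13 members that share 1 protein sequence. Hist1h4d had the highest mean TPM of the H4 genes in every population. It ran from 0 to 1326 TPM in SK cells (median 104), 0 to 524 in WT-MPP (median 2.85), 0 to 476 in BM HSC (median 9.19) and 0 to 2938 in FL HSC (median 193). It was higher by 1.97 in SK cells than in WT-MPP and by 3.75 in FL HSC than in BM HSC. Hist1h4m and Hist1h4n have the same coding sequence, with 0 differences over 309 bases, so that their reads can be split between them. Hist1h4n showed the largest positive difference of any member between SK cells and WT-MPP, 2.87, and the sum of both genes gave the same value, while Hist1h4m alone gave 0.42. Hist1h4n was found in 61.7% of SK cells (46.4 to 75.5), 8.33% of BM HSC (1.75 to 22.5), 60.7% of FL HSC (46.8 to 73.5) and 19.5% of WT-MPP (8.82 to 34.9). Of its 50-base stretches, 14.4% occurred in no other member. Hist1h4f was at 0 in every BM HSC, which allows a share of up to 8.33%, and was found in 28.6% of FL HSC. Hist1h4c was found in 57.4% of SK cells and 46.4% of FL HSC and in 12.2% and 19.4% of WT-MPP and BM HSC. Hist4h4, the single member on chromosome 6, did not share this order, at 1 TPM or more in 21.3% of SK cells (10.7 to 35.7), 13.9% of BM HSC (4.67 to 29.5), 10.7% of FL HSC (4.03 to 21.9) and 9.76% of WT-MPP (2.72 to 23.1), shares whose intervals overlap.

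**Figure D4:**
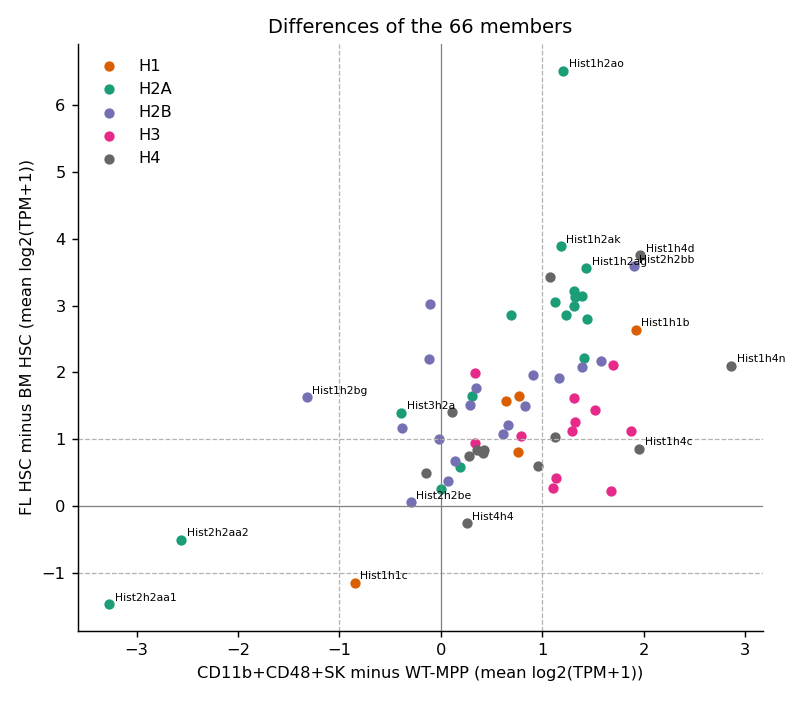
Difference in mean log2(TPM+1) between SK cells and WT-MPP (horizontal) and between FL HSC and BM HSC (vertical) for each of the 66 members, coloured by type, with dashed lines at 1 and -1. Hist2h2aa1 and Hist2h2aa2 lie at the lower left (-3.27 and -2.56 on the horizontal axis), and Hist1h2ao at the top with 6.52.

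Members with a long annotated stretch after the stem-loop differed less between SK cells and the adult populations than those that end soon after it. Among the 21 members with 100 or more bases after the stem-loop, the median difference between SK cells and WT-MPP was 0.34, with 7 higher and 1 lower. Among the 22 with fewer bases it was 1.17, with 12 higher and 2 lower. Among the 23 with no stem-loop in the transcript it was 0.96, with 11 higher and none lower. Of all genes, 13.9% were higher and 3.67% lower in this comparison, with a median difference of 0.032. Between FL HSC and BM HSC the same medians were 1.39, 1.69 and 1.21, against 0.11 over all genes. Hist1h1c, Hist1h2bg, Hist3h2a, Hist3h2ba and Hist4h4 are in the first group, but so are Hist1h4d and Hist1h4i, which were higher in SK cells and FL HSC, while Hist2h2aa1 and Hist2h2aa2 are in the second. The second group also holds the near-identical H2A genes Hist1h2ab, Hist1h2ad, Hist1h2ag, Hist1h2ao and Hist1h2ap. The length of the stretch therefore cannot be told apart from histone type and shared reads. These groups were compared by their medians and counts only.

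Histone levels were then set against genes of S phase within each population. The S-phase list held 43 genes, among them the replication genes Mcm2, Pcna and Rrm2. Slbp, Casp8ap2, Nasp and Mcm2 are in it and also among the processing and chaperone genes below. A cell's score was the mean log2(TPM+1) of the 43 genes. At least 50% of them (22 genes) were at 1 TPM or more in 26 of 47 SK cells (55.3%, 40.1 to 69.8) and 28 of 56 FL HSC (50%, 36.3 to 63.7). Among adult cells this held for 6 of 36 BM HSC (16.7%, 6.37 to 32.8) and for 1 of 41 WT-MPP (2.44%, 0.0617 to 12.9). This divides a range, and 7 SK cells, 11 FL HSC, 5 BM HSC and 1 WT-MPP lay within 2 genes of the limit. WT-MPP had the fewest such cells, and FL HSC came close to SK cells.

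Within FL HSC, cells with more S-phase transcripts had more histone TPM. The summed histone TPM had a median of 7753 (1945 to 31648) in the 28 FL HSC at or above the limit and 3683 (510 to 18103) in the other 28, and its rank correlation with the S-phase score was 0.49 over 56 cells. Within SK cells the medians were 3019 (764 to 40542) in 26 cells and 3299 (374 to 13247) in 21, and the rank correlation was 0.13 over 47 cells. In WT-MPP and BM HSC the correlations were -0.14 over 41 cells and -0.36 over 36 cells. The 6 BM HSC above the limit had a median of 1063 TPM, against 2609 in the other 30. The points of each correlation share the cell's library and its scaling to 1 total, and the S-phase score also followed the number of detected genes, with rank correlations of 0.79, 0.66, 0.57 and 0.62 in SK cells, WT-MPP, BM HSC and FL HSC. With genes of G2 and M phase in place of S phase the 4 correlations were 0.33, -0.30, -0.39 and 0.53. Given the number of detected genes, the 4 correlations were -0.0193, -0.080, -0.24 and 0.45. With the number of members at 1 TPM or more in place of the sum, the value was 0.37 in SK cells and 0.29 in WT-MPP.

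**Figure D5:**
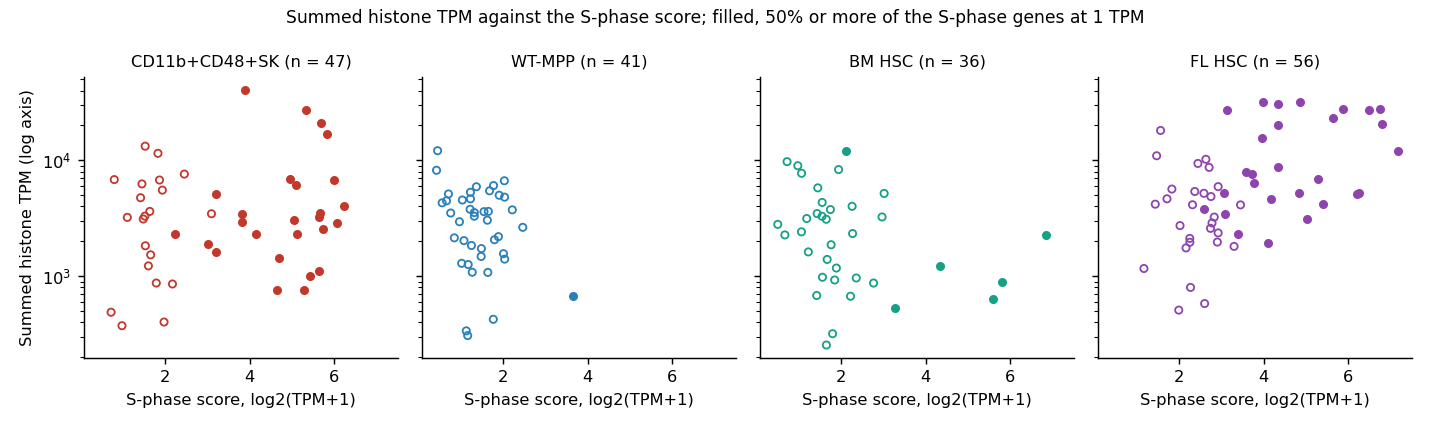
Summed histone TPM (log axis) against the S-phase score, the mean log2(TPM+1) of 43 genes, with 1 panel per population; filled points are cells with 50% or more of the S-phase genes at 1 TPM or more. Points lie higher towards the right in FL HSC (rank correlation 0.49). In SK cells (0.13) filled and open points have close medians, 3019 and 3299 TPM. The highest SK points are filled, reaching 40542 TPM against 13247 TPM for open points.

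The types differed in this respect. In FL HSC the rank correlation with the S-phase score was 0.54 for summed H2A, 0.38 for H4, 0.33 for H3, 0.26 for H1 and 0.042 for H2B. In SK cells it was 0.23 for H2A, 0.20 for H4, 0.17 for H3, -0.012 for H1 and -0.039 for H2B. Given the number of genes detected, the values for SK cells were 0.028 for H2A, 0.094 for H4, 0.092 for H3, -0.015 for H1 and -0.16 for H2B, and in FL HSC H2A stayed at 0.47. In WT-MPP the correlation was 0.34 for H1, 0.25 for H4, 0.096 for H3, -0.12 for H2B and -0.20 for H2A. In BM HSC it was -0.26 for H2A, -0.20 for H1, -0.19 for H2B, -0.057 for H4 and near 0 for H3. By member, 38 of 66 were at 0.3 or more in FL HSC, against 5.96% of all other genes with a defined value. In SK cells 16 of 65 were (12.1% of all other genes), in WT-MPP 8 of 64 (8.08%) and in BM HSC 2 of 62 (11.9%). The highest members in FL HSC were Hist1h2ai (0.61) and Hist1h2ab (0.59), both H2A genes, and Hist1h3h (0.58). The lowest were Hist1h2bc (-0.27), Hist1h2be (-0.20), Hist1h2bg (-0.16), Hist3h2a (-0.13), Hist2h2aa1 (-0.10) and Hist2h2aa2 (-0.086). In SK cells the highest was Hist2h2bb (0.44) and the lowest Hist1h1c (-0.31). Hist1h1b was at 0.34, 0.16, 0.34 and 0.48 in SK cells, WT-MPP, BM HSC and FL HSC. Only 7.32% of WT-MPP and 2.78% of BM HSC had it at 1 TPM or more, so those 2 values rest on few cells.

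Members also varied together within a population, most of all in FL HSC. The median rank correlation between pairs of H3 genes was 0.64 in FL HSC, 0.47 in SK cells, 0.48 in BM HSC and 0.20 in WT-MPP. Between H2A and H3 genes, which do not share coding sequence, it was 0.54 in FL HSC, 0.39 in SK cells, 0.090 in BM HSC and 0.078 in WT-MPP. Between H2A and H4 genes it was 0.39, 0.19, -0.11 and 0.10 in the same order. The 12 head-to-head pairs, whose members share the stretch between their starts, had a median of 0.41 in FL HSC (0.077 to 0.65), with Hist1h2ah and Hist1h2bk at the top. All other H2A with H2B pairs had a median of 0.31 there. In SK cells the corresponding medians were 0.21 and 0.22, in WT-MPP 0.33 and 0.20 and in BM HSC 0.33 and 0.17. There the head-to-head medians rest on 11, 10 and 10 pairs, as the others hold a member at 0 in every cell. Pairs of near-identical members within a type were not separated from these values.

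Most histone genes outside the clusters make polyadenylated mRNA, and 12 of the 18 chosen were listed. H2afx, the variant phosphorylated at DNA breaks, is an exception that also makes a stem-loop mRNA in S phase. It followed the larger group of clustered genes and was higher in SK cells by 2.80 than in WT-MPP and by 3.06 than in BM HSC, and in FL HSC by 2.90 and 3.16. H1f0, the H1 gene of resting and differentiated cells, was at 1 TPM or more in 42.6% of SK cells and in 96.4% to 97.6% of the other populations. Its medians were 0.808 TPM in SK cells, 261 in BM HSC, 154 in FL HSC and 143 in WT-MPP, so that SK cells stood apart from FL HSC for this gene, by -4.50. H3f3b, which encodes H3.3, was lower in SK cells and FL HSC, with mean TPM of 1645 and 1663, than in WT-MPP (3257) and BM HSC (4054). Cenpa, the centromere H3, was found in 89.3% of FL HSC and in 27.8% to 43.9% of the others. Of the 12 genes, 4 were higher (13.9% of all genes) and 1 lower (3.67%) by 1 or more in SK cells than in WT-MPP, and 5 higher (18.7%) and 1 lower (3.99%) in FL HSC than in BM HSC.

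Genes that make and process histone mRNA differed by less, on median, than the clustered genes themselves (medians 0.81 and 1.46). Of 27 listed genes of histone transcription and 3′ processing, 8 were higher and none lower in SK cells than in WT-MPP (median difference 0.32), and 10 higher and none lower in FL HSC than in BM HSC (0.66). Of all genes, 13.9% were higher in the first of these comparisons and 18.7% in the second, and the counts of the lists below are read against the same shares. Slbp, which binds the stem-loop, was found in 86.1% to 92.9% of cells in each population and was higher by 0.98 in SK cells than in WT-MPP and by 1.57 in FL HSC than in BM HSC. Npat differed by 0.32 and 0.38 and Casp8ap2, which acts beside it at histone loci, by 0.24 and -0.12. Ccne2, a cyclin E gene upstream of NPAT, had the largest difference of the list between SK cells and WT-MPP, 2.36, and was at 1 TPM or more in 40.4% of SK cells and in 0% of WT-MPP. Of 26 listed histone chaperones, 11 were higher and 1 lower in SK cells than in WT-MPP (median 0.95), and 9 higher and none lower in FL HSC than in BM HSC (0.75). Among them Nasp, a carrier of soluble H3 and H4, was higher by 2.88 and 3.78, Mcm2 by 3.31 and 2.84 and Asf1b by 2.81 and 1.78. The S-phase list itself, which shares genes with these lists, had 31 of 43 genes higher between SK cells and WT-MPP (median 2.04). Between FL HSC and BM HSC 26 were higher (1.29). The G2 and M phase list of 54 genes had 23 and 31 higher, with medians of 0.89 and 1.17.

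The genes outside the clusters whose level most resembled the summed histone TPM, by the mean of the rank correlations within the 4 populations over 10611 genes with a value in each, were led by Kif11 (mean 0.33), the motor that separates spindle poles, and Kif23 (0.31), a motor of the central spindle. The next were C330027C09Rik (0.30), 1190002F15Rik (0.30), Cenpp (0.29), Kif2c (0.29), Cdca8 (0.28), 2810013P06Rik (0.28), H2afv (0.27) and 9130206I24Rik (0.27). Kif11 was at 0.43 in SK cells, 0.18 in BM HSC, 0.51 in FL HSC and 0.20 in WT-MPP. The values are small, most of all in the adult populations, and neighbours in this order differ by little.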

How the data were processed

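Single cells were sorted and amplified with the Discover-sc WTA Kit V2, and libraries were made with the TruePrep DNA Library Prep Kit V2. The authors' processing notes name HISAT2 2.1.0, SAMtools 0.1.19, StringTie 1.3.4, bcl2fastq and mm10, and the values deposited by the authors are TPM per gene and cell. How reads matching several genes were handled is not given in the sources used here, so near-identical members may be split differently between libraries. Of 181 columns of cells, 1 matched no sample and was left out.

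Members, lists and quantities were chosen with earlier results of these data known. Each cell's group came from its cell type label. Differences are those of the mean over cells of log2(TPM+1), with all listed genes kept and a step of 1 counted; 65 of 66 members reached 1 TPM in 10% of the cells of a population. With no animals named, no test was made, shares have exact Clopper-Pearson 95% intervals, and correlations are Spearman's, as description. Named genes were, per type, the 4 of highest mean TPM, the 5 largest differences each way in SK cells minus WT-MPP and in FL HSC minus BM HSC, members at 0 in a whole population but at 1 TPM in 20% of another, genes outside the clusters, the processing and chaperone genes that differed most, and the 10 genes most like the sum; other members were named after their values were seen. Coordinates, coding sequences and stem-loops are from GENCODE M21 (GRCm38), and promoters from RefSeq. RefSeq entries matched all 66 members by symbol or synonym with overlapping position. Python 3.11.15 with pandas 2.3.3, numpy 2.4.6 and scipy 1.17.1 was used, and the steps were tested on simulated data. Alternatives were the pseudocount, the log of the mean, a filter on low values, median-ratio scaling, sets of members and other scores; summing identical coding sequences, leaving out the highest cell, leaving out Hist1h2ao with Hist1h2ap and a ratio minimum of 10 TPM were chosen after seeing the data.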

Additional observations from a re-analysis of the deposited data

How the results depend on the processing

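No paired analysis was possible because no test was made and cells carry no number that ties them to an animal. A planned draw of 36 cells per population was not run. Depth is unknown, each population is 1 sample, and near-identical members share reads. The causes of the shifts below were not tested beyond each setting's construction.

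In the order SK cells minus WT-MPP, SK cells minus BM HSC, FL HSC minus WT-MPP, FL HSC minus BM HSC, SK cells minus FL HSC and BM HSC minus WT-MPP, the median differences with a pseudocount of 0.1 were 1.303, 1.67, 2.36, 2.59, -1.26 and -0.28. With a pseudocount of 10 the first 5 were 0.37, 0.33, 0.44, 0.51 and -0.22. On the log of the mean TPM they were 1.52 for the first and -0.39 for the fifth.

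Counts of members past a difference of 1 also moved. With a pseudocount of 0.1, 44 were higher in SK cells than in BM HSC (15.7% of all genes). In SK cells minus FL HSC 2 were higher (6.42%) and 38 lower (24%). In BM HSC minus WT-MPP 3 were higher (18.8%) and 6 lower (4.6%). With a pseudocount of 10, 4 (5.09% of all genes), 11 (3.62%), 18 (10.4%) and 19 (7.04%) were higher in the first 4 comparisons. In the fifth 0 were higher (1.21%) and 7 lower (5.21%), and in the last 1 was lower (0.506%). On the log of the mean TPM, 10 (21.3% of all genes), 7 (25.1%), 5 (16.1%) and 7 (18.1%) were lower in the first 4. In the fifth 5 were higher (7.74%), and in the last 10 were higher (15.8%) and 10 lower (11.4%). Over the 24 members that share no protein, 8 (13.9% of all genes), 9 (9.79%), 14 (24.8%) and 16 (18.7%) were higher in the first 4. In the same 4 comparisons 0 (3.67%), 1 (8.63%), 0 (2.25%) and 1 (3.99%) were lower. In the fifth 0 were higher (2.94%) and 10 lower (15.3%), and in the last 0 were lower (1.96%). Between SK cells and FL HSC, 2 were higher after median-ratio scaling (3.47% of all genes). Without the highest cell of each population, a setting chosen after seeing the data, 0 were higher (3.08%).

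Turns of sign were counted only for named members that differed by 1 or more on the main scale. On the log of the mean TPM the sign turned for Hist3h2a (-0.63) and Hist3h2ba (-0.29) in FL HSC minus WT-MPP. It also turned for Hist1h1d (-0.39) and Hist1h2bg (-0.29) in FL HSC minus BM HSC, and for Hist1h2bc (0.0886) in SK cells minus FL HSC. Smaller differences could turn as well. That of Hist4h4 between SK cells and WT-MPP was 0.26, while its mean TPM was 9.06 and 29.4.

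The median summed TPM of SK cells, 3220, became 1513 without Hist1h2ap, 1479 without Hist1h2ao too (also chosen after seeing the data), 340.2 over members sharing no protein, and 5499 as a mean. For WT-MPP the values were 2099.8, 2052 and 258 in the same order. For BM HSC it was 422 and for FL HSC 536 over members sharing no protein, and for FL HSC 2523 without both copies and 9016 as a mean. The correlation with the S-phase score in SK cells was 0.25 for the mean log2 over members, 0.37 for the number detected and -0.0193 given detected genes. In WT-MPP it was 0.19 and 0.29 for the first 2 of these, and in BM HSC -0.18 for the number detected. The share of cells with 50% of the S-phase genes above 0 was 76.6% of SK cells, 36.1% of BM HSC and 69.6% of FL HSC, and 0% of WT-MPP passed at 10 TPM.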
